A study of Mus musculus with 49 samples.

Results

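Hox genes and 8 further homeobox families were followed across fibroblasts, fibroblasts given reprogramming factors and pluripotent stem cells of the mouse. The members were all genes on the array whose current mouse symbol places them in Hoxa, Hoxb, Hoxc, Hoxd, Dlx, Pitx, Meis, Pbx, Msx, Lhx, Nkx or among the Six-family genes, each read from its brightest probe. The rule found 58 genes with 63 probes, of 13852 named genes with 19426 probes. They comprised Hox genes of all 4 clusters (8 in Hoxa on chromosome 6, 9 in Hoxb on chromosome 11, 7 in Hoxc on chromosome 15 and 6 in Hoxd on chromosome 2), 7 Lhx, 5 Dlx, 4 Msx, 3 Meis, 3 Pbx and 2 Pitx genes, and Six2, Six4, Six5 and Six3os1, and no Nkx probe was found. Of these, 4 entries are noncoding partners (Dlx6os2, Hoxa11os, Msx1os and Six3os1), and since the strand that each probe reads is not given in the sources used here, Hoxa11 and Hoxa11os, and Msx1 and Msx1os, which overlap, are read as uncertain.

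The study asked which factors can stand in for OCT4 or SOX2 when mouse cells are made pluripotent. RNA was measured on 49 single-colour arrays in 23 groups, 20 of them with 2 arrays and 3 with 3. Mouse embryonic fibroblasts (MEF) of the strain OGXICR, female, were prepared at D13.5 of embryonic age from the skin of limbs and tails after the epidermis had been taken off, so they are themselves a mixture of limb and tail positions. They were left uninfected or infected with doxycycline-inducible lentiviruses: an empty vector (EV; MEF1 EV and MEF2 EV), SKM (SOX2, KLF4 and MYC) with EV or with OCT4, GATA6, SOX7, PAX1, GATA4, CEBPa, HNF4a, GRB2 or MIXL1, and OKM (OCT4, KLF4 and MYC) with EV, SOX1, SOX2, SOX3 or GMNN. Every SKM or OKM group therefore carried KLF4 and MYC, and their vector controls did not. Pluripotent cells were induced pluripotent stem cells (iPSC) of the lines G6Gm and G3, a further line treated with Dlx3 RNAi and called Dlx3RNAi, and the embryonic stem cell (ESC) lines R1 (strain 129) and B6 (strain C57BL/6). All of these lines grew on mitomycin C-treated MEF feeder cells, in medium with PD0325901 and CHIR99021 or with LIF in their place, and each iPSC line is 1 line with 2 arrays. Nothing in the labels says that the arrays of a group came from separate cultures, so p-values measure only the spread between these arrays.

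Hox genes encode transcription factors that mark position along the body axis: within each cluster, low-numbered genes act towards the head, middle-numbered ones in the trunk, and high-numbered ones in the tail end and the far parts of the limbs. Fibroblasts keep a Hox pattern that reflects the site they were taken from, while in pluripotent cells the clusters are held silent by Polycomb proteins. Pbx and Meis proteins are TALE homeodomain partners that bind DNA together with Hox proteins, and Dlx, Msx, Pitx, Lhx and Six-family genes are homeobox genes outside the clusters that act in limb, skin, head, pituitary, eye, muscle or neuron development.

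The deposited values fall into 5 separately normalized sets, called here A (ESC B6), B (MEF2 EV and OKM+EV), C (OKM with SOX1, SOX2, SOX3 or GMNN), D (MEF1 EV and all SKM groups) and E (uninfected MEF, the 3 iPSC lines and ESC R1), and no test crosses sets. Values are intensities on a linear scale in arbitrary units, and 53, 48, 49, 43 and 50 members had a value on all arrays of sets A to E, 35 of them in every set. Among the arrays, OKM+EV replicate 3 (Spearman correlation 0.803 to 0.857 with the other arrays of its group, which correlated at 0.981) and OKM+SOX2 replicate 1 (0.891 with replicate 2) stood apart. In set D the means of CEBPa+SKM, HNF4a+SKM and GRB2+SKM correlated at 0.991 to 0.993 with each other. In set E the summed intensity of 5 measured pluripotency markers of 12 was 674.9 to 683.2 in MEF and 9992.9 to 17896.8 in the lines. The sum of 12 measured fibroblast markers of 15 was 94062.1 to 101423.9 in MEF, 65888.7 to 73403.3 in Dlx3RNAi, 53616.3 to 55345.0 in G6Gm, 36374.4 to 37307.1 in R1 and 20371.4 to 20807.7 in G3. Bright markers weigh most in this sum, and the markers did not move together. Mean Postn and Col1a2 were higher in Dlx3RNAi (21173.6 and 11893.1) than in MEF (11958.6 and 8817.0). The other measured markers were lower there, among them S100a4 (2650.0 against 24482.7) and Pdgfra (132.9 against 2116.5). No marker of either list had a group mean of 0 in set E. In bulk samples fewer cells of a type and less RNA per cell cannot be told apart.

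The 250 bases upstream of the annotated start are shown for 5 members whose levels separated fibroblasts from the lines in set E, the first 3 higher in MEF and the last 2 higher in the lines. The sequences are RefSeq's, on build GRCm38.p6, written 5′ to 3′ on the strand of the gene. The Hoxd8 window is chr2:74704365-74704614 (plus strand), that of Hoxa5 chr6:52204588-52204837 (minus strand, inside the annotated extent of Hoxa3), that of Six5 chr7:19094294-19094543 (plus strand), that of Pitx3 chr19:46148326-46148575 (minus strand) and that of Hoxd13 chr2:74667975-74668224 (plus strand). Capitals mark matches to the searched motifs.
Hoxd8: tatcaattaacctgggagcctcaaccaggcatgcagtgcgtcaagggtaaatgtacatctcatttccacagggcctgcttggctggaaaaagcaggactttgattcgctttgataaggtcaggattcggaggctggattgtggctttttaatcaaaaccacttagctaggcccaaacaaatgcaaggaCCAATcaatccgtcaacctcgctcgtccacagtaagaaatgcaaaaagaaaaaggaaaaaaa
Hoxa5: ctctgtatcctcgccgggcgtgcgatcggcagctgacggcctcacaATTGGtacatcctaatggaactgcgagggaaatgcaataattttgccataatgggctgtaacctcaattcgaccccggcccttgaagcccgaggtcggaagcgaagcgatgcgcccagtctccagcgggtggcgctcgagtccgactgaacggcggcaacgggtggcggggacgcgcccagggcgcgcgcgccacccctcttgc
Six5: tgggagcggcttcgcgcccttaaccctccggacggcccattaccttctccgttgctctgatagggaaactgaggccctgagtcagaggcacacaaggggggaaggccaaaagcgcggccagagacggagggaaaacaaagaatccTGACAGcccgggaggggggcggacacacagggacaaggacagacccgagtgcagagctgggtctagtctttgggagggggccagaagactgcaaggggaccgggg
Pitx3: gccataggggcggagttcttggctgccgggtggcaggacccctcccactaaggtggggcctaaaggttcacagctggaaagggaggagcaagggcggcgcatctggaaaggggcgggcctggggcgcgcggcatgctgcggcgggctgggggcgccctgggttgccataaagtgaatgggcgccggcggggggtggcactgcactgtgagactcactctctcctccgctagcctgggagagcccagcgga
Hoxd13: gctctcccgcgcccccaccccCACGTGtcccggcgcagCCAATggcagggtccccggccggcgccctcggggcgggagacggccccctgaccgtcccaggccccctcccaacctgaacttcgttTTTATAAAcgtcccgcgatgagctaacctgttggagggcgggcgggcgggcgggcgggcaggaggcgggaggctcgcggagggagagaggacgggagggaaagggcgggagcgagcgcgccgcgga
In Hoxd8 the capitals mark the box CCAAT, bound by the general factor NF-Y at many promoters. Hoxa5 holds the same box on the other strand, printed as its reverse complement. In Six5 they mark TGACAG, the motif that Meis proteins prefer. Hoxd13 holds an E-box (CACGTG), which lies upstream of a box like that of Hoxd8, and further down a pair of TATA-type matches (TATAAA) that overlap on opposite strands. Pitx3 held none of the letters searched.

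Windows were found for 38 of the 58 members, 42 windows in all. CpG-rich starts prevailed: member windows held 8.75 to 21.5 CG dinucleotides between their quartiles and Hox member windows a median of 12, against a median of 6 over all 32841 RefSeq windows of 27018 genes. The 5 windows printed held 6 (Hoxd8), 28 (Hoxa5), 13 (Six5), 16 (Pitx3) and 31 (Hoxd13). On both strands, CCAAT was present in 22 of 42 member windows (52.4%, against 33.9% of all windows) and TATAAA in 8 (19%, against 12.4%). TGACAG was present in 7 (16.7%, against 15.9%). Of the others, the homeodomain core TAATTA was in 1 (4.84% of all windows), the Pbx-Hox type TGATTNAT in 2 (2.83%), the GATA type AGATAA in 2 (9.99%), CACGTG in 3 (6.02%) and the octamer ATGCAAAT in 0 (1.6%). TGATTNAT and TAATTA can share letters, and a match is a description of these letters only.

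The comparison of pluripotent lines with uninfected MEF asks what becomes of the fibroblasts' positional genes in cells that have been reprogrammed or derived as ESC. Most Hox genes were lower in the lines: of 26 Hox protein-coding genes tested, 17 fell and 3 rose, and of 11 trunk genes (numbers 4 to 8) 9 fell and 0 rose. Over all 11991 genes 57.8% passed, 28.7% higher and 29.1% lower, so calls in either direction were common in this comparison. Over the 50 members 23 fell and 14 rose, a total of 74% called. The median log2 difference was -0.96 over Hox genes and -1.24 over trunk genes, against 0.03 over all genes tested. Of 5 anterior genes (1 to 3) 3 fell and 1 rose (median -0.99), and of 10 posterior genes (9 to 13) 5 fell and 2 rose (median -0.38). By cluster, 6 of 6 Hoxa genes, 4 of 7 Hoxb, 5 of 7 Hoxc and 2 of 6 Hoxd genes fell, with 0, 1, 1 and 1 rising. In the 23 members outside Hox and its antisense RNA, 11 rose and 6 fell (median 0.14). In this and later comparisons called genes were named partly because their arrays did not overlap between groups. Their lack of overlap is therefore part of the choice and no further evidence.

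**Figure D1:**
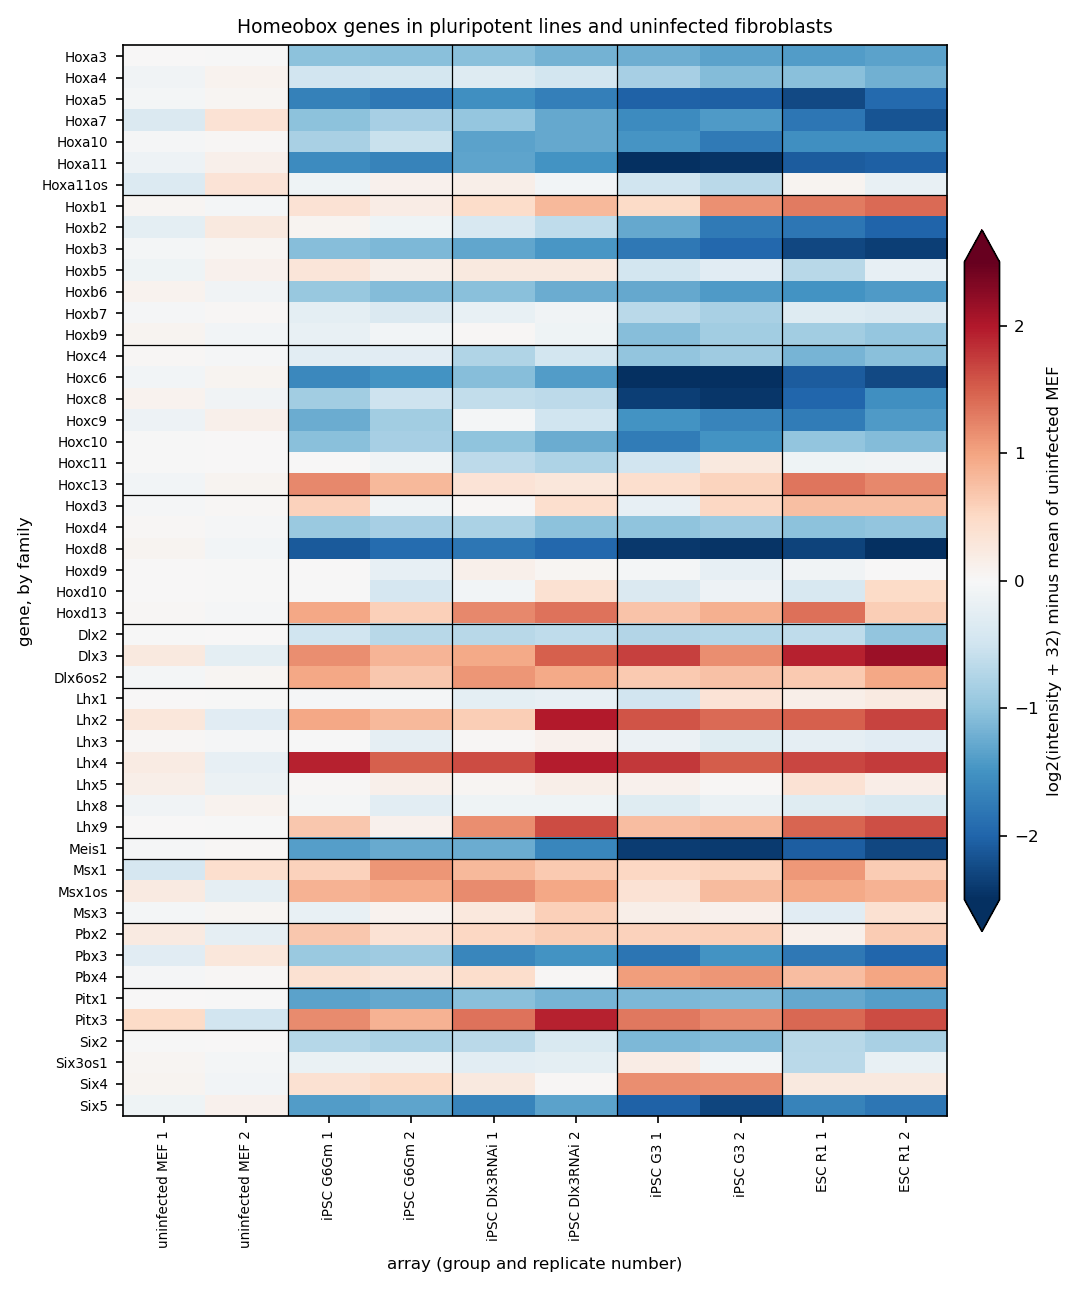
Heat map of the 50 members measured in set E (rows, ordered by family) on its 10 arrays (columns); colour gives log2(intensity + 32) minus the mean of the 2 uninfected MEF arrays, with the scale limited to 2.5 in each direction. Most Hox rows are below the MEF level in all 8 line arrays, with 17 of 26 passing as lower, while the Lhx4, Dlx3 and Pitx3 rows are above it.

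Hoxd8 (chr2:74704615-74707933), a trunk-group gene, gave intensities of 1748.2 and 1599.4 in the MEF arrays. In the lines it was 364.3 and 417.6 in G6Gm, 287.1 and 281.3 in G3, 312.2 and 269.1 in R1 and 452.2 and 404.1 in Dlx3RNAi. All 8 line arrays (348.5 ± 70.5, SD) lay below both MEF arrays, and Hoxd8 fell by 2.18 on the log2 scale (SE 0.127, limma adjusted p = 3.2e-15). Hoxc6 (chr15:102998226-103011882), a gene of the thoracic region, was 5251.3 and 5794.9 in MEF and 792.0 to 2613.8 in the lines (median 1532.8). It fell by 1.90 (SE 0.121, adjusted p = 2.48e-14) with no overlap, yet its lowest line, G3, at 792.0 and 924.7, and its highest, Dlx3RNAi, at 2613.8 and 2070.5, were themselves far apart. Hoxa5, required for the neck-to-thorax transition and for lung development, was 750.5 and 809.0 in MEF and 192.5 ± 36.1 (SD, n = 8) in the lines. It fell by 1.87 (SE 0.0955, limma adjusted p = 1.23e-16), and its lines lay closer together than those of Hoxc6.

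Hoxc8, which patterns the lower thorax and forelimb motor neurons, was 2017.3 and 1789.4 in MEF, 1018.6 and 1322.5 in G6Gm, 1230.8 and 1197.8 in Dlx3RNAi, 346.7 and 325.4 in G3 and 454.3 and 634.0 in R1. The groups did not overlap, and the fall was 1.37 with a large SE of 0.431 (limma adjusted p = 0.00749). It was no longer called without uninfected MEF replicate 1 (adjusted p = 0.0738), and its second probe was likewise highest in MEF (416.4) and lowest in G3 (144.2). Hoxa7 was 362.0 and 613.9 in MEF and 81.5 to 251.5 in the lines and fell by 1.38 (SE 0.425, adjusted p = 0.00941), a call that ended without uninfected MEF replicate 2 (adjusted p = 0.164). Hoxc4 was 540.5 and 519.5 in MEF and between 220.4 and 436.3 in the lines, and fell by 0.73 (SE 0.163, limma adjusted p = 0.000335). The other trunk genes that fell, all with MEF below the median gene, were Hoxb6 (-1.24), Hoxd4 (-0.94) and Hoxa4 (-0.73). Hoxb5 (-0.09) and Hoxb7 (-0.38, adjusted p = 0.124) did not pass.

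At the anterior end, Hoxb3 was 453.5 and 490.6 in MEF and 66.0 to 207.8 in the lines, and fell by 1.67 (SE 0.217, limma adjusted p = 1.25e-07). A second Hoxb3 probe ran the other way, with its lowest group mean in MEF (117.3) and its highest in R1 (211.3), so the direction for the gene rests on the brighter probe. Hoxb2, a hindbrain gene and the brightest Hoxb member, was 1594.8 and 2232.3 in MEF and overlapped with G6Gm (1973.9 and 1761.3), although the fit called it lower over all lines (-0.99, adjusted p = 0.00339; 0.111 without uninfected MEF replicate 2). Of the posterior genes, Hoxa11, which patterns the forearm and lower leg, was 441.2 and 525.3 in MEF and 111.1 ± 44.6 (SD, n = 8) in the lines. It fell by 1.91 (SE 0.177, limma adjusted p = 1.35e-10). The posterior genes that fell from below the median gene or with overlapping arrays were Hoxa10 (-1.28), Hoxc10 (-1.18), Hoxc9 (-1.12) and Hoxb9 (-0.51; adjusted p = 0.134 and 0.0598 without uninfected MEF replicate 1 and 2).

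Hoxd13, the most posterior Hoxd gene and a gene of digit formation, moved the other way: it was 190.4 and 182.0 in MEF, 297.5 to 528.6 in the iPSC lines and 531.1 and 301.2 in R1. All 8 line arrays were above both MEF arrays, and it rose by 0.96 (SE 0.254, limma adjusted p = 0.00178). The other Hox genes called higher were dim, Hoxc13 (0.77) and Hoxb1 (0.77; adjusted p = 0.0685 and 0.117 without uninfected MEF replicate 1 and 2). Hoxd9 (-0.04) and Hoxd10 (-0.07), between Hoxd8 and Hoxd13 in the same cluster, did not pass.

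**Figure D2:**
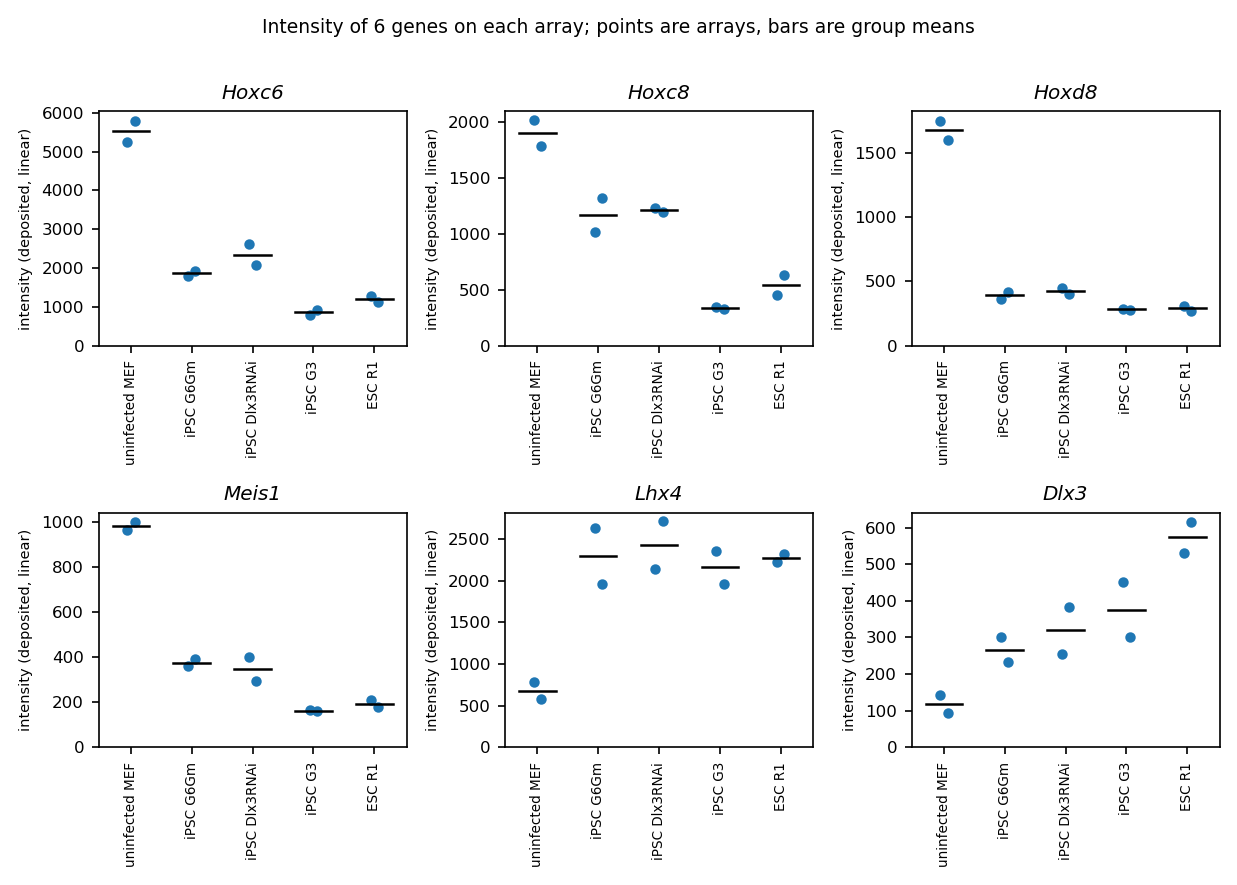
Intensity per array (linear axis) of Hoxc6, Hoxc8, Hoxd8, Meis1, Lhx4 and Dlx3 in the 5 groups of set E. Points are arrays and bars are means of 2. For Hoxc6, Hoxc8 and Meis1 the points of G6Gm and Dlx3RNAi lie between MEF and the pair G3 and R1, while Lhx4 is at 1960.6 or more in all lines against 781.6 and 575.9 in MEF.

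The Hox partners split by gene. Meis1 (chr11:18880428-19019651), a marker of the proximal limb, was 964.4 and 999.2 in MEF and 160.3 to 398.3 in the lines (median 251.8), and fell by 1.83 (SE 0.168, limma adjusted p = 1.17e-10). Pbx3 was 908.1 and 1343.6 in MEF and 256.4 to 578.4 in the lines (median 352.3), and fell by 1.51 (SE 0.162, adjusted p = 3.27e-09). As the naming rule required, neither overlapped between MEF and lines. Pbx2, the widely expressed partner and the brightest Pbx member, was 7671.0 and 5584.5 in MEF and 7135.1 to 10497.1 in the lines, with overlap; the fit gave 0.51 higher (adjusted p = 0.031), a call that ended without uninfected MEF replicate 2 (0.417), iPSC G6Gm replicate 1 (0.0549) or ESC R1 replicate 2 (0.0622). Pbx4 was also called higher (0.63), below the median gene.

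In the families outside Hox, Lhx4 (chr1:155698031-155751726), a LIM homeobox gene of the pituitary and of motor neurons, was 781.6 and 575.9 in MEF and 1960.6 to 2713.0 in the lines (median 2272.5). It rose by 1.71 (SE 0.399, limma adjusted p = 0.000527). Dlx3, a gene of epidermis and placenta, was 143.6 and 92.3 in MEF and 232.9 to 614.9 in the lines, and rose by 1.42 (SE 0.249, adjusted p = 1.47e-05). Pitx3, a lens and dopamine neuron gene, was 256.5 and 118.1 in MEF and 347.5 to 759.4 in the lines, and rose by 1.36 (SE 0.327, adjusted p = 0.000728). Lhx2, of forebrain, limb and hair follicle, was 272.2 and 173.1 in MEF and 348.5 to 955.0 in the lines, and rose by 1.32 (SE 0.383, adjusted p = 0.00424). As the naming rule required, the arrays of MEF and lines did not overlap for these 4 genes. Without uninfected MEF replicate 2, the dimmer array for each, Pitx3 (adjusted p = 0.0943) and Lhx2 (adjusted p = 0.11) were no longer called, and Lhx4 and Dlx3 were.

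Msx1 and its antisense RNA Msx1os, which lie on the same DNA, were both called higher, Msx1os from 259.4 and 179.5 to a median of 432.5 (0.87, SE 0.3, limma adjusted p = 0.0145) and Msx1 from 142.0 and 278.2 to a median of 329.2 (0.74, SE 0.238, adjusted p = 0.0124). Msx1os lost its call without uninfected MEF replicate 2 (adjusted p = 0.215) and Msx1 without replicate 1 (adjusted p = 0.389). Six5, a gene of muscle and lens, went the other way, from 453.1 and 532.2 in MEF to 75.3 to 177.9 in the lines (median 133.8), a fall of 1.69 (SE 0.204, adjusted p = 3.15e-08) without overlap. Six4, the brightest member of its family, overlapped between the groups (0.49; adjusted p = 0.1 without uninfected MEF replicate 2). The remaining called members were dim: Lhx9 (1.03) and Dlx6os2 (0.84) were higher, and Pitx1 (-1.22), the hindlimb gene, Hoxa3 (-1.2), Six2 (-0.79) and Dlx2 (-0.70) were lower. Of all members, 13 did not pass, among them Lhx1, Lhx3, Lhx5, Lhx8, Msx3 and Six3os1.

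Taken line by line against MEF, each line had more Hox genes lower than higher, and the lines fell into a pair with larger and a pair with smaller medians. In G3, 18 Hox genes fell and 2 rose (median -1.12; 26.9% of all genes lower and 25.4% higher), and in R1 18 fell and 3 rose (-1.11; 27.5% and 25.7%). In G6Gm 12 fell and 1 rose (-0.57; 21.7% and 18.5%), and in Dlx3RNAi 12 fell and 1 rose (-0.62; 25.0% and 23.3%). In the trunk group 10 of 11 fell in G3 and in R1 (medians -1.35 and -1.45), and 6 of 11 in G6Gm and Dlx3RNAi (-0.88 and -0.91). Over all members 35 were called in G3 (52.3% of all genes), 37 in R1 (53.2%), 24 in G6Gm (40.2%) and 25 in Dlx3RNAi (48.3%). The 4 comparisons share the MEF arrays, so their values are set side by side only. G6Gm and Dlx3RNAi, with the smaller Hox medians, had the higher fibroblast marker sums (above), and the part that fibroblast RNA, feeder cells included, has in the line-to-line difference was not tested.

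The comparison of the iPSC lines with ESC R1 asks how the levels of positional genes differ between them. R1 and the MEF differ in strain, so strain, line and origin cannot be told apart here. R1 did not lack such genes: mean Hoxc6 was 1202.8 in R1 and 858.3 in the iPSC line G3. Over the 3 iPSC lines, 8 members were higher and 3 lower than in R1 (7.2% and 6.35% of all genes), and 7 of the 8 higher ones were Hox genes. The median over Hox genes was 0.29, against 0.01 over all genes. Hoxb2 was 519.5 and 447.0 in R1, 760.3 and 534.8 in G3, 1973.9 and 1761.3 in G6Gm and 1417.3 and 1207.0 in Dlx3RNAi. No iPSC array was at or below the R1 arrays, and Hoxb2 was 1.22 higher over the 3 lines (SE 0.289, limma adjusted p = 0.00375), a call that ended without ESC R1 replicate 2 (adjusted p = 0.0938). Dlx3, at 531.1 and 614.9 in R1 and 232.9 to 450.9 in the iPSC lines, was 0.81 lower in the latter on the log2 scale (-0.81, SE 0.258, limma adjusted p = 0.0333). That call ended without any of 5 arrays, with adjusted p of 0.0694 without iPSC G6Gm replicate 2, 0.0788 without iPSC G3 replicate 2 or iPSC Dlx3RNAi replicate 1, 0.136 without ESC R1 replicate 1 and 0.276 without ESC R1 replicate 2. The other called Hox genes were Hoxb3 (0.87), Hoxb9 (0.54), Hoxa4 (0.52), Hoxc4 (0.49), Hoxb5 (0.48) and Hoxa5 (0.30) higher and Hoxc13 (-0.67) lower, and outside Hox Pbx3 was higher (0.50) and Lhx9 lower (-0.67). Each of these 9 calls ended without ESC R1 replicate 1, replicate 2 or either, with the highest adjusted p of each gene between 0.113 (Hoxb3) and 0.658 (Hoxa5). The total of 11 called members became 2 without either ESC R1 array.

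Line by line, the fit over all arrays called more members against R1 in G6Gm and Dlx3RNAi than in G3. G6Gm had 12 members higher and 4 lower (17.6% of all genes called, 9.79% higher and 7.78% lower), 10 of the higher ones Hox genes, with a Hox median of 0.41. Dlx3RNAi had 11 higher and 2 lower (19.4%, split into 9.62% and 9.79%), 10 of the higher ones Hox genes, with a Hox median of 0.39. G3 had 1 higher and 1 lower (8.33%, split into 4.34% and 3.99%), with a Hox median of -0.04, and 8 members at an unadjusted p under 0.05. A limma fit of set E alone called 20 members in G6Gm, 19 in Dlx3RNAi and 8 in G3. In G3, 17 members had an unadjusted p under 0.05 in that fit. The share of all genes called in it is not given here, so G3 is not read as equal to R1. In G6Gm, Hoxb2 was 1.88 higher (SE 0.354, limma adjusted p = 0.000253) and Pbx3, at 563.6 and 578.4 against 298.4 and 256.4, was 0.97 higher (adjusted p = 0.000972). Hoxc6, at 1793.6 and 1937.4 in G6Gm and 1272.0 and 1133.6 in R1, was 0.62 higher (adjusted p = 0.00397) but lost its call without iPSC G6Gm replicate 2 (0.0534) or ESC R1 replicate 2 (0.0637). Meis1, at 358.6 and 391.9 against 210.0 and 176.4, was 0.86 higher (adjusted p = 0.0043) and lost its call without the same arrays (0.0509 and 0.0648). Hoxc4, at 436.3 and 426.8 against 220.4 and 239.7, was 0.82 higher (adjusted p = 0.00468; 0.051 without ESC R1 replicate 1).

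In Dlx3RNAi, Hoxc6, at 2613.8 and 2070.5, was 0.94 above R1 (limma adjusted p = 3.53e-05) and kept its call without each array in turn. Hoxb2 was 1.38 above R1 (adjusted p = 0.00511; 0.0538 without ESC R1 replicate 2 and 0.0563 without iPSC Dlx3RNAi replicate 1). Hoxb9 was 0.88 higher (adjusted p = 0.00538; 0.0515 and 0.0584 without the same arrays). Hoxd8, at 452.2 and 404.1 against 312.2 and 269.1, was 0.51 higher (adjusted p = 0.0225), and this call ended without ESC R1 replicate 2 (0.187), iPSC Dlx3RNAi replicate 1 (0.162) or replicate 2 (0.0538). In G3, Six4, at 455.9 and 451.3 against 225.5 and 227.3 in R1, was 0.91 higher (SE 0.173, adjusted p = 0.00627; 0.0558 without iPSC G3 replicate 1 and 0.0506 without ESC R1 replicate 1). Hoxc6 in G3 was lower than in R1 by a margin at the threshold (-0.47, adjusted p = 0.0495), which ended under 7 alternatives, with 0.403 without iPSC G3 replicate 1, 0.0777 without iPSC G3 replicate 2, 0.332 without ESC R1 replicate 1 and 0.0983 without ESC R1 replicate 2. The remaining named calls, all in G6Gm, were Hoxb9 (0.79, adjusted p = 0.0132; 0.0531 to 0.1 without any of the 4 arrays), Lhx9 (-1.13, adjusted p = 0.00406; 0.0878 without iPSC G6Gm replicate 2) and Dlx3 (-1.03, adjusted p = 0.0213; 0.184 without iPSC G6Gm replicate 2, 0.0639 without ESC R1 replicate 1 and 0.146 without ESC R1 replicate 2).

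Set directly against each other, G6Gm had 14 members above and 2 below G3 (19.7% of all genes called, 10.7% higher and 9.01% lower), 11 of the higher ones Hox genes and none of the lower. Hoxc6 was 1.09 higher in G6Gm than in G3 (limma adjusted p = 2.85e-06) and Meis1 1.07 higher (adjusted p = 0.000375), both called without each array in turn. Dlx3RNAi had 11 above and 2 below G3 (25.3%), 10 of the higher ones Hox genes, led by Hoxc6 (1.41, adjusted p = 2.47e-08). Hoxc8 was 1.70 and 1.76 above G3 in G6Gm and Dlx3RNAi (adjusted p = 0.0249 and 0.0162), calls that ended without any of the 4 arrays (0.0694 to 0.161 and 0.0686 to 0.0845). Pbx4 was lower than G3 in both (-0.73 and -0.84, adjusted p = 0.00197 and 0.000398). Dlx3RNAi and G6Gm differed in 1 member, Lhx9 (1.00, adjusted p = 0.041, against 2.84% of all genes called), a call that ended without any of the 4 arrays (0.0617 to 0.431). The gene aimed at by its name, Dlx3, was 254.5 and 383.8 in Dlx3RNAi, overlapping with G6Gm (0.22, adjusted p = 0.808) and G3 (-0.21, adjusted p = 0.682), and -0.81 below R1 without passing (adjusted p = 0.072).

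MEF that received SKM with the empty vector were compared with MEF1 EV. Of 43 members measured in set D, 9 fell and 1 rose, against 19.7% of all 10006 genes called, 9.69% lower and 9.99% higher. Of 25 Hox genes 7 fell and 0 rose (median -0.37, all genes -0.02): 2 of 6 anterior, 4 of 10 trunk and 1 of 9 posterior genes. Hoxa5 was 1814.4 and 1907.0 in MEF1 EV and 967.2 and 958.3 in SKM+EV, and fell by 0.93 (SE 0.121, limma adjusted p = 6.18e-07), a call that held without each array in turn. Hoxc6 was 12453.4 and 14894.6 in MEF1 EV and 9489.5 and 9641.0 in SKM+EV and fell by 0.51 (SE 0.153, adjusted p = 0.0162). Hoxb3 was 3310.1 and 2236.8 against 1373.4 and 1228.3 and fell by 1.05 (SE 0.275, adjusted p = 0.00583). A second Hoxb3 probe had its highest group mean of set D in MIXL1+SKM (394.7), not in MEF1 EV, and its lowest in GATA4+SKM (156.8). Hoxb3 calls in set D are therefore those of the brighter probe. Hoxa11 was 1639.5 and 1563.4 against 797.2 and 1195.0 and fell by 0.70 (SE 0.224, adjusted p = 0.0254). Pbx3 was 1101.1 and 1340.5 against 569.2 and 798.8 and fell by 0.82 (SE 0.205, adjusted p = 0.00399). These 5 genes were named partly because their arrays did not overlap between the groups.

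The last 4 of these falls each rested on single arrays. Without MEF1 EV replicate 1, adjusted p was 0.15 for Hoxb3 and 0.139 for Hoxa11, and without MEF1 EV replicate 2 it was 0.178 for Hoxc6, 0.0626 for Pbx3 and 0.0727 for Hoxa11. Without SKM+EV replicate 1 it was 0.0788 for Hoxc6, 0.113 for Pbx3 and 0.357 for Hoxa11, and without SKM+EV replicate 2 it was 0.0598 for Hoxb3 and 0.0703 for Hoxc6. The total of 10 called members became 6 without MEF1 EV replicate 1 or either SKM+EV array. Below the median gene, Hoxa3 (-1.17), Pitx1 (-0.85), Hoxa4 (-0.60) and Hoxb6 (-0.37) fell and Dlx2 (0.47) rose. Of these, Hoxa4 lost its call without MEF1 EV replicate 1 (0.113) or SKM+EV replicate 2 (0.141), and Hoxb6 (0.0764 to 0.239) and Dlx2 (0.0795 to 0.121) without any of the 4 arrays. The other 15 members above the median gene did not pass, with differences from -0.57 (Hoxc8) to 0.33 (Hoxc4). Hoxc8 was 14800.6 and 15301.9 in MEF1 EV and 11614.1 and 8874.7 in SKM+EV, lower on both arrays but with a large SE (0.545, limma adjusted p = 0.552). That SE also draws on OKM+SOX2 arrays outside the set, at 71.4 and 1622.1, so the missing call does not show that Hoxc8 was unchanged. Meis1 overlapped between the groups (-0.47, adjusted p = 0.124), and Hoxd8 (-0.09), Pbx2 (-0.11) and Lhx4 (0.15) were among those with small differences. Summed keratinocyte markers (7 measured of 8) were 2427.2 to 2645.8 in MEF1 EV and 99315.8 to 103167.0 in SKM+EV. Krt14 weighed most in that sum, with means of 1239.6 and 48858.3. Krt5 did not move with it (297.5 and 297.8), Trp63 had no value in set D, and the other measured keratinocyte markers were higher in SKM+EV. Summed fibroblast markers were 226853.7 to 228879.9 in MEF1 EV and 175832.8 to 183008.3 in SKM+EV. Mean S100a4 (28367.1 and 42696.2) and Twist2 (1494.5 and 1997.0) were higher in SKM+EV, and the other measured fibroblast markers were lower. The part of these markers in the Hox differences was not tested.

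Averaged over all 10 SKM groups, 11 members were lower and 4 higher than in MEF1 EV (44.5% of all genes called, 20.6% lower and 23.9% higher), and of the Hox genes 10 were lower and 1 higher. The 3 named falls were in trunk and posterior genes. Hoxa5 fell by 0.89 (SE 0.0894, limma adjusted p = 1.81e-09), with all SKM arrays at 581.7 to 1660.3, below both MEF1 EV arrays. Hoxd10 was 725.7 and 739.3 in MEF1 EV and 281.2 to 632.2 in the SKM arrays and fell by 0.82 (SE 0.203, adjusted p = 0.0015). Hoxc8 fell by 1.02 (SE 0.403, adjusted p = 0.0396), and this call ended without either MEF1 EV array (0.184 each). The higher members were Hoxc4 (0.52), Pbx4 (0.53), Six5 (0.51) and Dlx2 (0.38). They lost their calls without MEF1 EV replicate 1 (0.647 for Hoxc4, 0.572 for Six5 and 0.077 for Dlx2) or replicate 2 (0.0518 for Pbx4 and 0.0596 for Dlx2). The total of 15 was 8 without MEF1 EV replicate 1, 14 without the CEBPa, HNF4a and GRB2 groups (36.8% of all genes called) and 12 without GATA4 (42.8%).

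**Figure D3:**
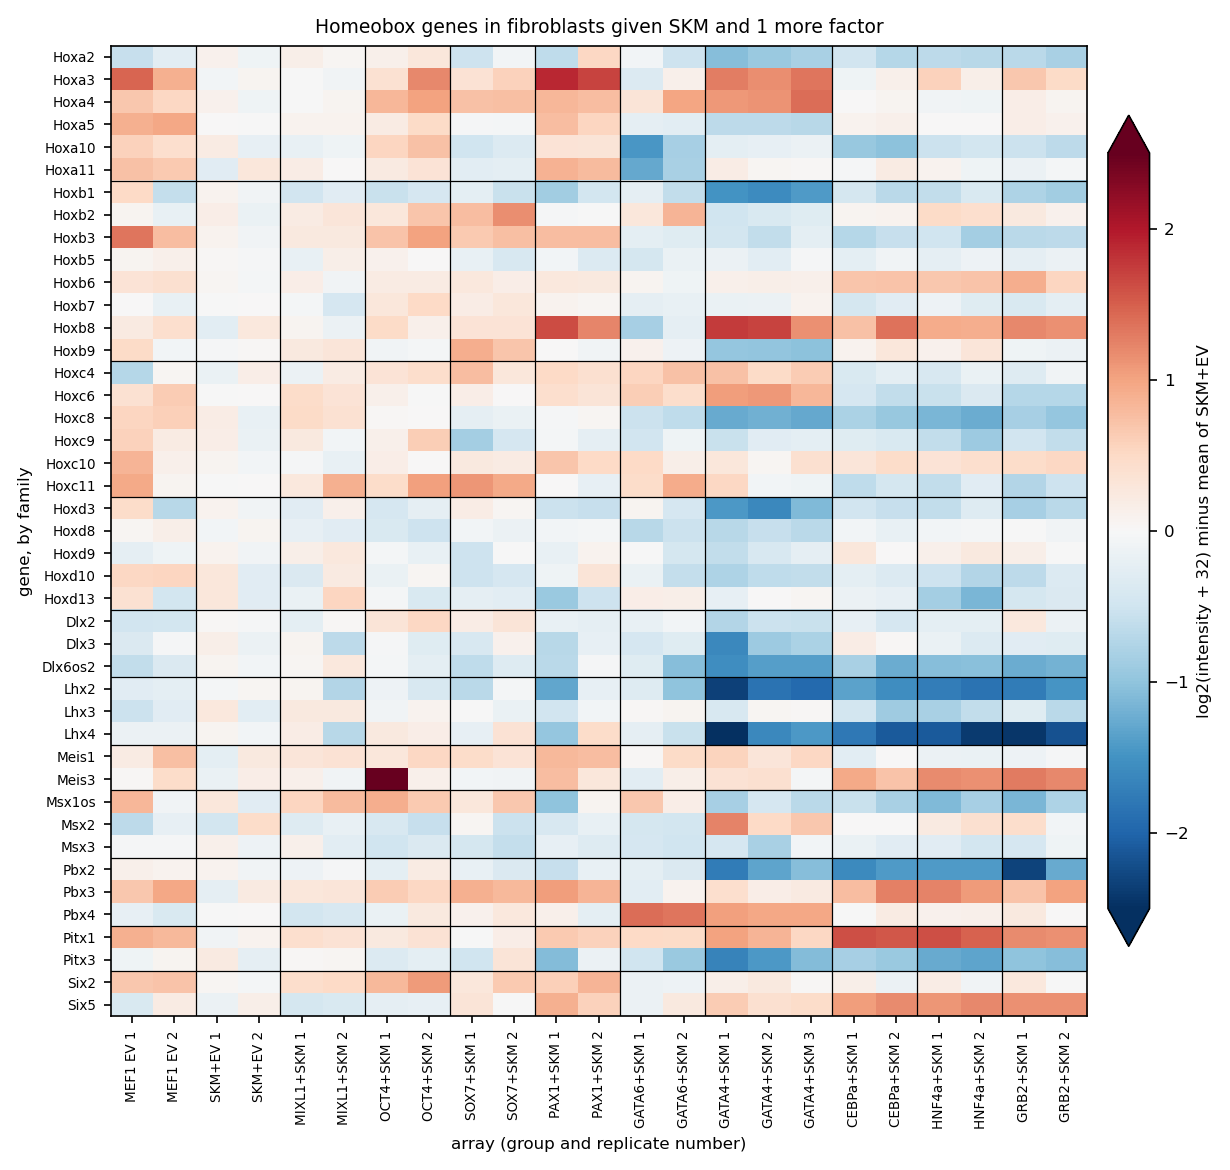
Heat map of the 43 members measured in set D (rows, by family) on its 23 arrays (columns, by group); colour gives log2(intensity + 32) minus the mean of the 2 SKM+EV arrays. The columns of GATA4, CEBPa, HNF4a and GRB2 are low for Lhx4, Lhx2 and Pbx2, and those of PAX1 and GATA4 are high for Hoxa3.

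Each added factor was then compared with SKM+EV, which asks what the factor adds to the 3-factor cocktail; these comparisons share the SKM+EV arrays. The number of members called ran from 0 with MIXL1 to 25 with GATA4. MIXL1 had 0 members called by limma (2.1% of all genes), with 4 at an unadjusted p under 0.05 and a lowest adjusted p of 0.128; a fit of set D alone called 2 (6.9% of all genes), with 7 at an unadjusted p under 0.05. OCT4 had 5 higher and 0 lower (11.0% of all genes, 5.28% higher and 5.73% lower), SOX7 4 and 0 (12.1%, 6.32% and 5.77%) and PAX1 8 and 0 (15.7%, 9.61% and 6.13%). GATA6 had 5 and 4 (22.0%, 11.8% and 10.2%) and GATA4 9 and 16 (53.8%, 29.0% and 24.8%). CEBPa had 5 and 7 (34.6%, 20.0% and 14.7%), GRB2 6 and 10 (40.3%, 23.2% and 17.1%) and HNF4a 5 and 10 (42.5%, 22.9% and 19.5%). With PAX1, OCT4 and SOX7 no member was called lower.

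With PAX1, a paired-box factor of the vertebral column, 8 members rose, 5 of them Hox genes, and none fell. Hoxa5 was 1660.3 and 1402.2 in PAX1+SKM against 967.2 and 958.3 in SKM+EV, nearer to the 1814.4 and 1907.0 of MEF1 EV, and rose by 0.65 (limma adjusted p = 0.000271). Hoxa11 was 1814.0 and 1714.3 against 797.2 and 1195.0 and rose by 0.83 (adjusted p = 0.00983; 0.245 without SKM+EV replicate 1 and 0.0861 without PAX1+SKM replicate 1). Meis1 was 3614.9 and 3551.0 against 1723.0 and 2449.3 and rose by 0.79 (adjusted p = 0.00972; 0.224 and 0.0732 without the same arrays). Pbx3 was 1420.3 and 1245.8 against 569.2 and 798.8 and rose by 0.95 (adjusted p = 0.00149; 0.0725 without SKM+EV replicate 1). For all 4 genes the groups did not overlap, as the naming rule required. The dimmer Hoxa3, at 653.7 and 562.6 against 144.1 and 163.3 (1.78, limma adjusted p = 2.88e-06), Hoxb8, at 252.5 and 180.8 against 44.0 and 78.4 (1.43, adjusted p = 0.00114), Hoxa4 (0.80) and Pitx1 (0.62) rose too. Keratinocyte markers summed to 14560.9 to 16424.8 in PAX1+SKM, against 99315.8 to 103167.0 in SKM+EV, and fibroblast markers to 200958.2 to 208886.0; their part in these rises was not tested.

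**Figure D4:**
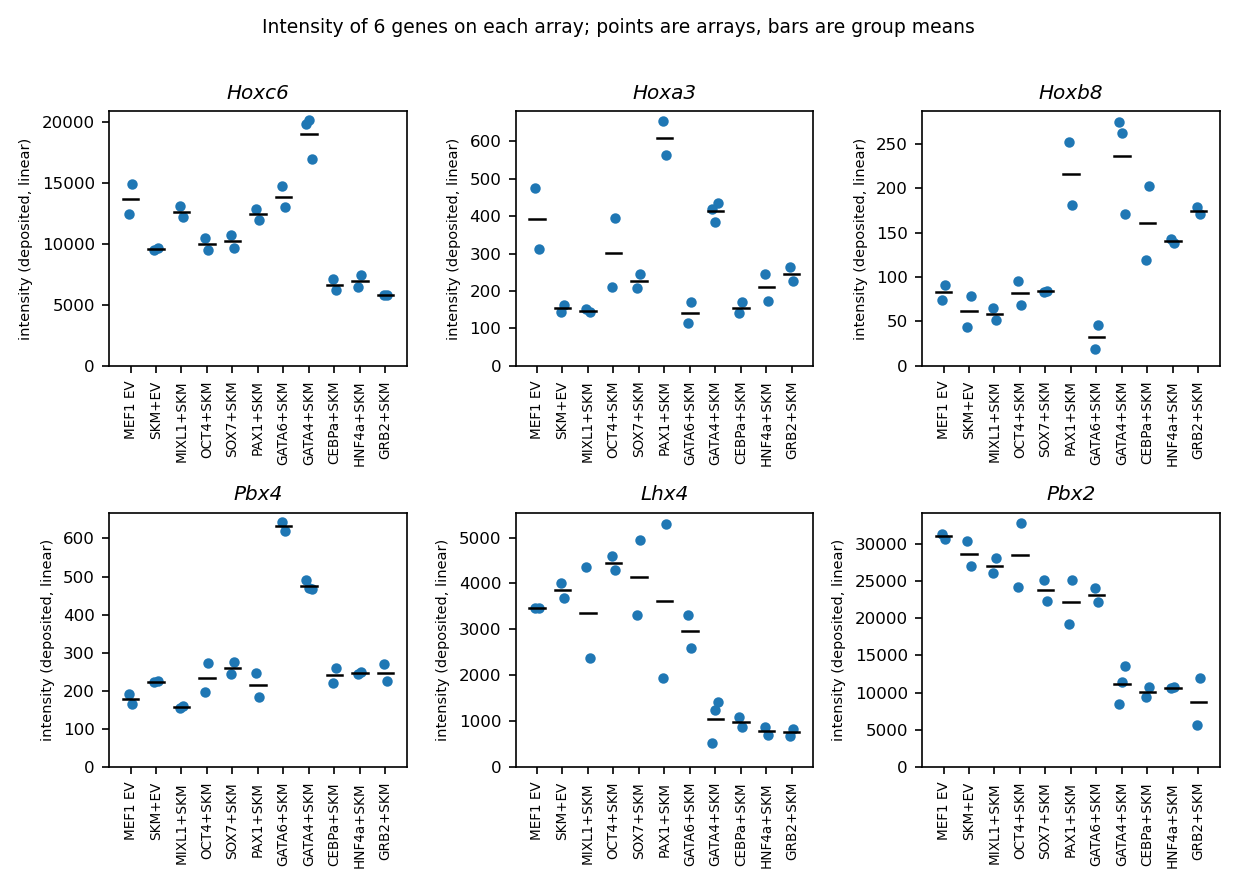
Intensity per array (linear axis) of Hoxc6, Hoxa3, Hoxb8, Pbx4, Lhx4 and Pbx2 in the 11 groups of set D. Points are arrays and bars are group means. Hoxc6 is highest with GATA4 (16999.6 to 20187.4) and lowest with GRB2 (5799.5 and 5827.4), and Pbx4 is high with GATA6 and GATA4 only among these groups.

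GATA4 and GATA6 are related zinc-finger factors of endoderm and heart, and their values are set side by side against the same SKM+EV arrays. Hoxc6 was 19813.3, 20187.4 and 16999.6 with GATA4 and 14735.6 and 13009.1 with GATA6, against 9489.5 and 9641.0 in SKM+EV. It rose by 0.98 with GATA4 (SE 0.139, limma adjusted p = 1.05e-06) and by 0.53 with GATA6 (adjusted p = 0.0106; 0.0725 without SKM+EV replicate 1 and 0.0965 without GATA6+SKM replicate 1). Pbx4, a Pbx partner best known from testis, was 490.4, 470.9 and 467.2 with GATA4 and 643.4 and 619.5 with GATA6, against 222.8 and 225.6, and rose in both (0.99 and 1.37, adjusted p = 6.69e-06 and 2.92e-07), from below the median gene. The groups were apart in each case, which for Hoxc6 the naming rule required. Hoxd8, 1828.5 and 2033.6 in SKM+EV, was 1181.3, 1289.6 and 1198.6 with GATA4 and 1173.5 and 1311.3 with GATA6. It fell by 0.64 (limma adjusted p = 0.000574) and by 0.62 (adjusted p = 0.00459; 0.0508 without SKM+EV replicate 2 and 0.0519 without GATA6+SKM replicate 1). Hoxc4, 1103.6 and 1405.3 in SKM+EV, was 2098.0, 1739.4 and 1939.8 with GATA4 (0.61, adjusted p = 0.00745; 0.145 without SKM+EV replicate 1) and 1822.6 and 2083.2 with GATA6 (0.63, adjusted p = 0.0254; 0.291 without SKM+EV replicate 1 and 0.209 without GATA6+SKM replicate 2).

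With GATA6, the posterior Hoxa genes were low. Hoxa11 was 381.0 and 539.8 against 797.2 and 1195.0 in SKM+EV and fell by 1.05 (limma adjusted p = 0.000623). Hoxa10, a gene of hindlimb and uterus, was 216.2 and 349.3 against 755.4 and 556.8, below the median gene, and fell by 1.15 (adjusted p = 0.000385). With GATA4, Hoxa10 was 542.9, 556.5 and 583.6 and Hoxa11 1118.7, 1004.4 and 991.3, and neither was called. The difference between the 2 factors was not tested. Summed fibroblast markers were 92177.0 to 94239.6 with GATA6 and 120427.1 to 127761.9 with GATA4, against 175832.8 to 183008.3 in SKM+EV, and summed simple epithelium markers 38168.7 to 45624.5 with GATA6 against 8869.0 to 13146.3; their part was not tested.

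With GATA4, 25 of 43 members were called, close to the 53.8% of all genes. Among Hox genes 5 rose and 8 fell, 4 and 3 of them in the trunk group, 1 and 3 in the anterior and 0 and 2 in the posterior group. Hoxa4 was 680.9, 701.9 and 849.9 against 332.3 and 278.3 and rose by 1.2 (limma adjusted p = 1.94e-07). Hoxa5 was 603.3, 600.1 and 581.7 against 967.2 and 958.3 and fell by 0.67 (adjusted p = 1.16e-05), so these neighbours on chromosome 6 moved in opposite directions. Hoxc8 was 4199.3, 4375.9 and 4150.5 against 11614.1 and 8874.7 and was called lower (-1.25, adjusted p = 0.0343), next to the rise of Hoxc6. The Hoxc8 call ended without any of the 5 arrays, with 0.196 without SKM+EV replicate 1, 0.0635 without SKM+EV replicate 2 and 0.0655, 0.0564 and 0.0632 without GATA4+SKM replicates 1, 2 and 3. Meis1 (0.45, adjusted p = 0.0492) lost its call without SKM+EV replicate 1 (0.533) and without GATA4+SKM replicate 1 (0.127) or 3 (0.102).

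Outside Hox, GATA4 went with low Lhx, Pbx2, Pitx3 and Dlx3 levels. Lhx4 was 525.3, 1245.5 and 1411.0 against 4018.6 and 3694.1 and fell by 1.94 (limma adjusted p = 0.000817). Lhx2 was 332.8, 483.2 and 451.7 against 1758.7 and 1875.3 and fell by 2.04 (adjusted p = 0.000336). Pbx2 was 8467.2, 11485.1 and 13636.0 against 30333.4 and 26958.3 and fell by 1.38 (adjusted p = 1.59e-05). All GATA4 arrays were below both SKM+EV arrays. Pitx3 was 306.9, 367.9 and 477.3 against 1232.0 and 885.1 and fell by 1.39 (adjusted p = 0.00283; 0.0598 without SKM+EV replicate 1). Dlx3 fell by 1.10 (adjusted p = 0.002) from a level below the median gene. Summed keratinocyte markers were 18013.0 to 19647.5 with GATA4 against 99315.8 to 103167.0 in SKM+EV, and their part in these falls was not tested.

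The groups with CEBPa and with HNF4a were each compared with that of GRB2; CEBPa against HNF4a was not tested. CEBPa differed from GRB2 in 0 members (0.06% of all genes called by limma; 3 members at an unadjusted p under 0.05) and HNF4a from GRB2 in 0 (0.64%; 1 member), and a fit of set D alone also called 0 in each (0.32% and 1.94% of all genes; 4 and 5 members at an unadjusted p under 0.05). CEBPa and HNF4a are liver transcription factors and GRB2 is a signalling adaptor. The means of these 3 groups correlated at 0.991 to 0.993 with each other and at 0.901 to 0.923 with SKM+EV. Whether the differences from SKM+EV that they share come from the added factors was not tested. Lhx4 was 1087.6 and 876.3 with CEBPa, 879.7 and 706.3 with HNF4a and 686.3 and 828.0 with GRB2, against 4018.6 and 3694.1, and fell by 1.95, 2.24 and 2.31 (limma adjusted p = 0.00334, 0.00069 and 0.000604). Pbx2 was 9489.5 and 10722.3, 10675.9 and 10705.8, and 5718.6 and 11921.6, against 30333.4 and 26958.3, and fell by 1.5, 1.42 and 1.79 (adjusted p = 3.17e-05, 5.3e-05 and 2.45e-06). These low Lhx4 and Pbx2 levels were called without each array in turn. Lhx2 was 694.7 and 596.2, 524.3 and 480.6, and 517.2 and 636.0 against 1758.7 and 1875.3 (-1.45, -1.79 and -1.61; adjusted p = 0.0203, 0.0038 and 0.00917). The Lhx2 call ended with CEBPa without any of the 4 arrays (0.0579 to 0.112) and with GRB2 without GRB2+SKM replicate 1 (0.0732).

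In the same 3 groups Pbx3 went up while Pbx2 went down. Pbx3 was 1175.5 and 1655.5 with CEBPa, 1632.9 and 1437.7 with HNF4a and 1118.6 and 1388.7 with GRB2, against 569.2 and 798.8. It rose by 1.01, 1.15 and 0.86 (limma adjusted p = 0.000291, 4.97e-05 and 0.00148), and with GRB2 the call ended without SKM+EV replicate 1 (0.0631). Pbx3 also rose with SOX7 (1278.6 and 1205.7; 0.85, adjusted p = 0.00506; 0.169 without SKM+EV replicate 1 and 0.0566 without SOX7+SKM replicate 1). Hoxc6 was 7097.7 and 6196.7 with CEBPa, 6465.3 and 7420.0 with HNF4a and 5799.5 and 5827.4 with GRB2, below the 9489.5 and 9641.0 of SKM+EV on every array. It fell by 0.53, 0.46 and 0.72 (adjusted p = 0.00798, 0.0151 and 0.000459), and with CEBPa the call ended without CEBPa+SKM replicate 2 (0.104) and with HNF4a without SKM+EV replicate 1 (0.0619) or 2 (0.0608) or HNF4a+SKM replicate 1 (0.141). Pitx3 fell with HNF4a (420.1 and 402.3; -1.28, adjusted p = 0.0135; 0.129 without SKM+EV replicate 1, 0.0535 and 0.068 without either HNF4a+SKM array) and with GRB2 (507.1 and 484.1; -1.03, adjusted p = 0.047; 0.0556 to 0.263 without any of the 4 arrays). HNF4a was also called lower for Hoxd13 (-1.0, adjusted p = 0.0132; 0.185 without SKM+EV replicate 1 and 0.106 without HNF4a+SKM replicate 2) and Hoxb3 (-0.67, adjusted p = 0.0496; 0.0577 to 0.28 without any of the 4 arrays). Summed keratinocyte markers were 34936.0 to 36842.5 with CEBPa, 18570.3 to 18765.2 with HNF4a and 22904.2 to 23336.4 with GRB2, against 99315.8 to 103167.0 in SKM+EV. Summed simple epithelium markers (3 measured of 7) were 2810.5 to 3063.3, 3208.4 to 3291.1 and 2023.8 to 2129.7, against 8869.0 to 13146.3. Summed fibroblast markers, at 180640.7 to 188789.7 over the 3 groups, were close to or slightly above the 175832.8 to 183008.3 of SKM+EV. The single markers did not move together. Mean Pdgfra was 6017.1, 6416.8 and 6382.2 with CEBPa, HNF4a and GRB2, against 11345.2 in SKM+EV. Mean Fbln2 was 19239.1, 19102.6 and 16654.7, against 10787.5. The part of these cell type markers in the members' differences was not tested.

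Some members were called in these groups although below the median gene, and are given as chosen after their values were seen. Pitx1 was 69.5 and 82.7 in SKM+EV, 297.5 and 283.8 with CEBPa, 299.1 and 269.7 with HNF4a and 213.2 and 205.2 with GRB2 (1.58, 1.55 and 1.16 higher). Six5 was 191.8 and 240.9 in SKM+EV and 475.0 to 533.4 over the 3 groups (1.11, 1.15 and 1.14 higher). Both genes stood above every SKM+EV array in all 6 arrays. Hoxb8 rose with CEBPa (1.04), HNF4a (0.91), GRB2 (1.17), GATA4 (1.52) and PAX1 (1.43), of which the call with CEBPa ended without SKM+EV replicate 1 (adjusted p = 0.091) or CEBPa+SKM replicate 2 (0.0972) and that with HNF4a without SKM+EV replicate 1 (0.137). With OCT4, the full 4-factor cocktail, Hoxa4 (0.92), Six2 (0.93), Hoxa3 (0.79) and Hoxb3 (0.87, limma adjusted p = 0.0368) were higher. Six2 lost its call without either SKM+EV array (0.059 and 0.095) or OCT4+SKM replicate 2 (0.158), and Hoxa3 without the same arrays (0.144, 0.0554 and 0.485). The Hoxb3 call ended without any of the 4 arrays (0.0702 to 0.291) and was 0.417 with the mean of its probes. Meis3 with OCT4 (2.42) rested on replicate 1, at 1935.8 beside 48.9 (adjusted p = 0.899 without it). Summed keratinocyte markers were 48882.1 to 52659.8 with OCT4, against 99315.8 to 103167.0 in SKM+EV, and their part was not tested.

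In set B, OKM with the empty vector was compared with MEF2 EV. The pooled fit called 11 members higher and 4 lower (40.8% of all 11947 genes), but on simulated data it called many unchanged genes in this comparison, so its calls are not read as changes. A fit of set B alone called 1 member, higher, against 5.55% of all genes. On simulated data that fit missed nearly all changed genes, so members that did not pass in it may still differ. That gene was Hoxa10, at 242.2 and 250.4 in MEF2 EV and 1834.6, 1548.3 and 780.9 in OKM+EV, apart on all arrays (2.27 higher, SE 0.438, limma adjusted p = 0.0308 in the fit of set B alone). Hoxc6 was 4935.2 and 4456.2 against 10253.4, 8418.8 and 11630.6 (adjusted p = 0.0539 in that fit), and Hoxd8 1038.8 and 755.4 against 2485.9, 2586.0 and 1863.4 (0.0579). Hoxb2 was 672.6 and 639.8 against 3796.9, 3626.6 and 935.0 (0.145). All 3 were higher on every OKM+EV array without passing.

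Pbx3 was 448.0 and 525.8 in MEF2 EV and 1214.2, 1159.2 and 773.9 in OKM+EV (limma adjusted p = 0.146 in the fit of set B alone), and Meis1 was 1502.4 and 1388.6 against 618.7, 673.7 and 928.0 (0.148). OKM+EV replicate 3 differed from its group for several members: Hoxa7 was 270.2 and 310.8 in replicates 1 and 2 and 1322.4 in replicate 3, Lhx2 2637.8, 1492.2 and 362.6, and Lhx4 5149.0, 3796.9 and 949.9. Without that array, a fit of set B alone called 18 of 48 members, against 46.6% of all genes. Among them were Hoxa10 (2.63, adjusted p = 1.43e-09), Hoxb2 (2.44, adjusted p = 5.13e-10), Hoxd8 (1.48, adjusted p = 9.08e-06) and Hoxc6 (0.98, adjusted p = 0.000195) higher and Meis1 (-1.12, adjusted p = 0.000473) lower. Summed myeloid markers (4 measured of 5) were 25914.0 to 32992.0 in MEF2 EV and 745.2 to 3189.6 in OKM+EV, and summed keratinocyte markers (8 of 8) 2171.4 to 2260.3 and 42615.1 to 74300.1; their part was not tested.

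**Figure D5:**
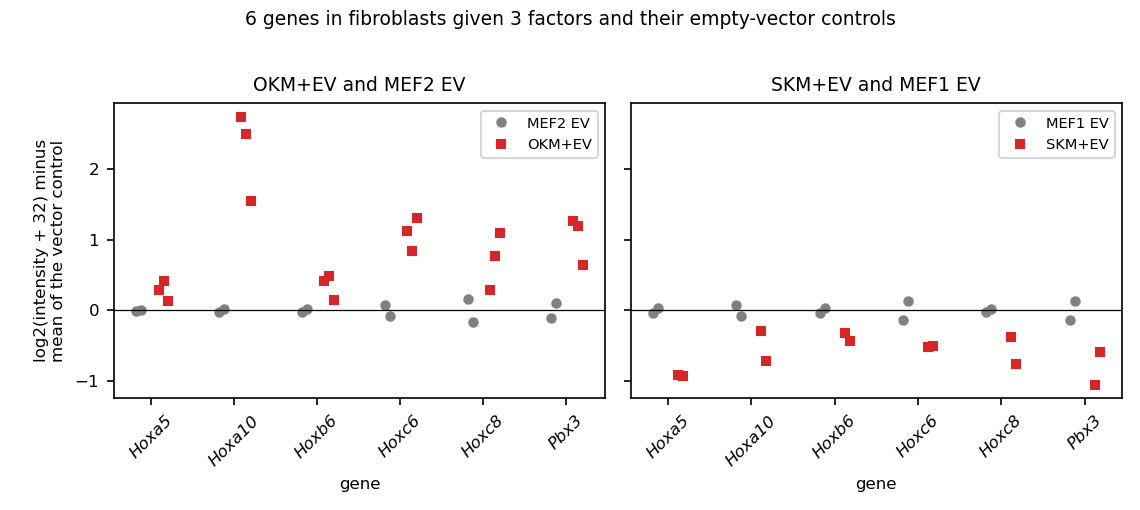
Differences of log2(intensity + 32) from the mean of the vector-control arrays for Hoxa5, Hoxa10, Hoxb6, Hoxc6, Hoxc8 and Pbx3, with OKM+EV against MEF2 EV on the left and SKM+EV against MEF1 EV on the right; points are arrays. Each gene's OKM+EV points lie above its control points and its SKM+EV points below, the means running from 0.28 to 2.27 and from -0.93 to -0.37.

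For 6 members the arrays of the 2 cocktails lay on opposite sides of their controls, without overlap in either set, out of 38 members measured in both; the same held for 8.17% of all 9323 genes measured in both. Hoxa5, which fell with SKM+EV, was 665.5 and 675.3 in MEF2 EV and 824.2, 908.8 and 736.6 in OKM+EV. Hoxc8 was 1721.4 and 1372.2 against 1891.0, 2642.2 and 3342.2, and Hoxb6 145.6 and 151.4 against 208.0, 222.0 and 167.6. The other 3 were Hoxa10, Hoxc6 and Pbx3. The cocktails were measured in separate sets with separate control fibroblasts, so the difference itself was not tested.

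In set C, SOX1, SOX3 and GMNN were each compared with SOX2 beside OKM, as candidate substitutes for SOX2. A fit of set C alone called 0 members in each comparison (0.215%, 0.241% and 2.03% of all 11188 genes called by limma; 9, 7 and 8 members at an unadjusted p under 0.05). On simulated data for SOX1 against SOX2, that fit recovered 0.896% of changes of 0.5 log2 units, 23.0% of 1.0 and 79.1% of 2.0. Most differences of 1.0 log2 unit, and some of 2.0, could therefore have been missed. The pooled fit called 5, 2 and 3 members (5.72%, 6.31% and 7.23%), and on simulated data it called unchanged genes more often than in sets D and E, so these are not read as changes. Hoxa10 was 418.9 and 395.5 with GMNN, 990.2 and 770.6 with SOX2, 966.2 and 743.4 with SOX1 and 990.2 and 788.9 with SOX3, and so lowest on both GMNN arrays (-1.04 in the pooled fit). Hoxc8 was 71.4 on OKM+SOX2 replicate 1 and 1422.1 to 2572.9 on the other 7 arrays of the set, which gave large pooled differences from SOX2 for SOX3 (2.13) and GMNN (2.43). A second Hoxc8 probe had its highest group mean in OKM+SOX2 (440.7) and its lowest with GMNN (252.0). Hoxc6 was 9766.5 and 9120.6 with SOX1, 5659.9 and 7675.8 with SOX2, 8921.8 and 7924.8 with SOX3 and 6442.5 and 6772.3 with GMNN. Meis1 was 828.2 and 552.3, 1317.5 and 940.3, 491.6 and 683.6, and 1192.8 and 1155.9 in the same order. Without OKM+SOX2 replicate 1 no member was called in the pooled fit or in that of set C alone.

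The other position and regulatory genes moved beside the members as follows. Of 16 measured limb and body position factors, 11 fell and 1 rose between MEF and the pluripotent lines (median -0.70), where 29.1% of all genes fell and 28.7% rose. Tbx15 (-2.30), Twist1 (-1.95) and Twist2 (-1.40) were lower and Tbx3 (0.43) higher. Of 7 other TALE homeobox genes 5 fell and 0 rose (median -1.04): Irx1 (-2.70), Irx2 (-1.83), Irx5 (-1.59), Mkx (-1.04) and Irx3 (-0.95). Of 22 Hox regulators 10 rose and 8 fell (median 0.37), with the Polycomb genes Cbx7 (3.31), Mtf2 (3.00), Jarid2 (2.81), Ezh2 (2.44), Eed (1.69) and Suz12 (1.53) higher and Phc2 (-1.62) and Bmi1 (-0.80) lower. In the iPSC lines against R1, 5 of 16 limb and body factors were higher (7.2% of all genes), among them En1 (0.91), Tbx18 (0.82) and Prrx2 (0.77), and Tbx3 (-1.13) was lower. Of the 22 regulators 2 were higher and 5 lower there (6.35% of all genes lower), the Polycomb partner Jarid2 among the latter (-0.98).

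In SKM+EV against MEF1 EV, 3 of 16 limb and body factors fell, Osr2 (-1.78), Prrx2 (-0.66) and Hand2 (-0.50), and 0 rose, where 9.69% of all genes fell and 9.99% rose. Of 6 TALE genes Mkx (-1.11) fell and Irx3 (0.83) rose, and of 24 regulators Bmi1 (-1.28) and Jarid2 (-1.15) fell while the retinoic acid binding proteins Crabp2 (2.17) and Crabp1 (0.72) rose. With PAX1 added, 3 of 16 limb and body factors were higher than in SKM+EV and 0 lower (9.61% and 6.13% of all genes), namely Hand2 (1.08), Osr2 (1.07) and Prrx2 (0.77); of the 24 regulators 3 were higher, Bmi1 (1.23) among them, and 1 lower. With GATA4, 9 of the 16 factors fell, Twist2 (-1.90), Tbx3 (-1.07) and Tbx5 (-1.02) among them, and Alx1 (1.17) and Hand2 (1.06) rose, where 24.8% of all genes fell and 29.0% rose. With GATA6, 6 of 16 fell and 0 rose (10.2% and 11.8% of all genes), and of 6 TALE genes 2 fell, Irx1 by 2.29.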

How the data were processed

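Total RNA was measured on 49 single-colour (Cy5) arrays, per the labels' protocols. The deposited values are linear intensities, 1 table for the series, normalized by the authors in a way not given in the sources used here. Array medians and sorted values split the table into 5 sets (medians 434.0 to 434.2 in A, 391.2 to 392.4 in B, 370.3 to 371.3 in C, 400.8 to 416.1 in D and 295.9 to 296.2 in E), and tests were made within sets. Of 19426 probes, 13971 carried a current symbol, 1538 an older name that matches 1 gene, and 30 an unmatched name; 3887 had no symbol. For 1531 genes with several probes the brightest was used.

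Values were tested as log2(intensity + 32), with 5 negative values set to 0, by limma 3.58.1 (R 4.3.3), with a mean for each of the 23 groups over all 49 arrays and an intensity trend. The SE of a gene therefore also draws on arrays outside the set compared. For Hoxc8 these include OKM+SOX2 at 71.4 and 1622.1, which enter every Hoxc8 SE and adjusted p given for sets D and E. P-values were adjusted by Benjamini-Hochberg over all genes with a value on every array compared, with a threshold of 0.05, over 31 comparisons. Fold changes on this scale understate those of dim genes. On simulated data the fit over all 49 arrays called unchanged genes too often in sets B and C, so fits of the set alone are given there. In sets D and E it recovered fewer changes of 1.0 log2 unit than fits of the set alone. These were 62.4% against 81.2% for SKM+EV against MEF1 EV, and 81.8% against 88.4% for the lines against MEF. Members that did not pass, or lost a call, in sets D and E may therefore still differ. "Below the median gene" refers to the median of gene means in a set. Members were named where they passed, did not overlap between groups and had their brighter side above that median, together with the brightest member of each family and Dlx3. Lack of overlap in members named by that rule was fixed by the choice. Members and gene lists were chosen with earlier results of these data known. Promoter windows came from RefSeq tables of GRCm38.p6. Alternatives were pseudocounts of 8 and 100, a filter on dim genes, fits of each set alone, quantile or median scaling, no trend, the mean of probes, a replicate block and leaving out each array. Leaving out groups or arrays that stood apart, and comparing lines or similar groups with each other, was added after seeing the data. The number of arrays limits the precision.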

Additional observations from a re-analysis of the deposited data

Results flagged for a closer look

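For 6 of 38 members measured in both sets (8.17% of all genes) the OKM+EV arrays all lay on one side of their MEF2 EV controls and the SKM+EV arrays all lay on the other side of MEF1 EV, and the difference between the cocktails was not tested, since they were measured in separate sets with separate control fibroblasts. On the log2 scale Hoxa10 was 2.27 with OKM+EV and -0.5 with SKM+EV. Hoxa5 was 0.28 and -0.93, Hoxb6 0.35 and -0.37, and Hoxc6 1.09 and -0.51. Hoxc8 was 0.72 and -0.57, and Pbx3 1.04 and -0.82. Of these values, those of Hoxa5, Hoxb6, Hoxc6 and Pbx3 passed for SKM+EV, and in the fit of set B alone Hoxa10 passed for OKM+EV.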

How the results depend on the processing

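The count of members called between pluripotent lines and MEF, 37, was 25 to 38 under the other settings and 28 to 38 without single arrays. The 11 members called between iPSC lines and ESC R1 were 7 with a pseudocount of 100, 7 with the dim filter and 17 in a fit of the set alone, and 2 to 7 without single arrays. Over the 3 lines separately, 31 became 14 with the dim filter and 47 in a fit of the set alone, and 15 to 30 without single arrays (15 without either ESC R1 array). SKM+EV against MEF1 EV, 10, gave 5 with the dim filter, 13 in a fit of the set alone and 6 to 8 without single arrays. All SKM groups, 15, gave 20 in a fit of the set alone and 8 to 16 without single arrays. The 94 calls of the factors against SKM+EV were 42 with the dim filter and up to 131 under the other settings. They were 51 without CEBPa, HNF4a and GRB2, 69 without GATA4, and 55 to 95 without single arrays (55 without SKM+EV replicate 1). OKM+EV against MEF2 EV, 15, gave 8 with the dim filter, 1 in a fit of the set alone, 18 in that fit without OKM+EV replicate 3, and 9 to 26 without single arrays (9 without MEF2 EV replicate 2 and 26 without OKM+EV replicate 3). OKM with SOX1, SOX3 or GMNN against OKM+SOX2, 10, gave 0 in a fit of the set alone, with or without OKM+SOX2 replicate 1, 6 with the mean of probes and 0 to 13 without single arrays (0 without OKM+SOX2 replicate 1 and 5 without OKM+SOX1 replicate 2). The dim filter tests fewer genes, and the cause of the other changes was not tested.

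Deviations from the group means were correlated pairwise over arrays with the same replicate number. The correlations ran from -0.18 to 0.251 in set B, -0.127 to 0.0775 in C, -0.496 to 0.515 in D and -0.24 to 0.238 in E. Their medians were 0.0353, 0.0175, 0.0109 and 0.0652, while single pairs, mainly in set D, moved together or in opposite ways. With the replicate number as a block, the pairing moved the count for OKM+EV against MEF2 EV to 26, for the OKM substitutes to 16 and for the iPSC lines against ESC R1 to 16. No named gene reversed its direction under any alternative run. Of the rows for single genes and settings, 1285 kept their call and 154 lost it.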

Other observations

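ESC B6 was normalized on its own and enters no comparison. As ranks among the 8479 genes with a value on all arrays, which place the same gene beside different arrays but are not a test, Hoxc6 stood at the 12.6th percentile in B6, the 73.8th in R1 and the 95.3rd in uninfected MEF. Hoxc8 stood at 9.6, 54.1 and 82.8, and Hoxd8 at 11.5, 38.0 and 80.6. Meis1 stood at 16.1, 27.3 and 69.1. These trunk genes and their partner ranked lowest in B6 of the 3. Pbx3 ran the other way between the ESC lines, at 66.3 in B6 (1872.7, 1887.7 and 1812.8) and 36.8 in R1. So did the trunk genes Hoxa5, at 35.3 (376.7, 412.3 and 378.5) and 22.5, and Hoxa4, at 19.4 and 7.1. Lhx4 stood at 53.4 in B6 (1219.5, 803.3 and 996.3) and 85.6 in R1, and Pbx2 was near the top in both, at 96.3 and 97.4. Summed fibroblast markers were 1973.6 to 2197.3 in B6 (10 measured of 15), in a set normalized apart from that of R1, and their part in these ranks was not tested.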
